A study of Homo sapiens with 6 samples.

Results

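Dense clusters of open loci are places where many sites of accessible chromatin lie within a few kilobases of each other. ATAC-seq maps such sites with the Tn5 transposase, which cuts DNA that is not wrapped in tightly packed chromatin. A summit is the position of highest signal in a called peak, and the data are 1 list of summits per library. Clusters were found in 3 steps. Summits of all 6 libraries were merged into loci within 250 bp, with the summit of highest score percentile in its own list as the centre. Loci present in 3 or more of the 6 libraries were kept. Kept loci no more than 5 kb apart were joined, and groups of 6 or more loci were called clusters. The result was 20 clusters with 133 loci, of 58040 kept loci and 123131 loci in all. A library "holds" a locus when it has a summit within 250 bp of the centre.

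The cells were H1, a line of human embryonic stem cells grown in mTeSR1 medium on Matrigel. All groups carried a lentiviral short hairpin RNA and were selected with puromycin, so the controls share the infection and the drug. There were 2 libraries with hairpin shHNRNPU #1, 2 with hairpin shHNRNPU #2 and 2 with the control hairpin shLUC, in 2 repeats, and the labels do not say whether the repeats are separate infections. The lists held 52168 to 63519 summits, and the read depth behind them is unknown. The p-values thus measure only the spread between these libraries, which may be technical. Each test below compares 4 shHNRNPU libraries with 2 shLUC libraries. It can give no two-sided p under 0.133. The lists do not measure RNA, so the knockdown of HNRNPU was not checked here.

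HNRNPU, also called SAF-A, is an abundant nuclear protein that binds RNA and chromatin and is counted among the proteins of the nuclear matrix. Several open sites close together are often found at promoters of compact gene families, such as histone and tRNA genes. They are also found around genes for developmental transcription factors, which in pluripotent cells are mostly silent but carry many regulatory elements. Promoters and enhancers are the usual sources of ATAC-seq summits.

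The promoters below show the range of sequence in which summits of clusters lay. They come from the RefSeq table of GRCh38.p14 and run from 250 bases before the gene start to 50 bases after it, 5′ to 3′ on the gene's strand. Capitals mark matches on either strand, as letters only, to the CCAAT box, the TATA box (searched as TATAAA), the GC box (searched as GGGCGG) and the octamer (searched as ATGCAAAT). The first pair are replication-dependent histone promoters, which supply histones in S phase (H3C2, chr6:26032050-26032349, minus strand; H2AC4, chr6:26033569-26033868, minus strand). DMRTA2 (chr1:50423394-50423693, minus strand) and SPAG6 (chr10:22345246-22345545, plus strand) are CpG-rich promoters with a summit in 6 of 6 libraries. FOXA1 (chr14:37595200-37595499, minus strand) had a summit in the window in 2 shHNRNPU libraries and in no shLUC library. HAND2 (chr4:173530180-173530479, minus strand) had such a summit in both shLUC libraries and in no shHNRNPU library.
H3C2: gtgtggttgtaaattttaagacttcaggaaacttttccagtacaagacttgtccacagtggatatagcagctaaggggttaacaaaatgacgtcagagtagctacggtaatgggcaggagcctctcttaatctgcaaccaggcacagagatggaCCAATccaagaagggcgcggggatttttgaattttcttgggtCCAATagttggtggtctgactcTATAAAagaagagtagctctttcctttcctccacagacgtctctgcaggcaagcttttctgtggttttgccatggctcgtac
H2AC4: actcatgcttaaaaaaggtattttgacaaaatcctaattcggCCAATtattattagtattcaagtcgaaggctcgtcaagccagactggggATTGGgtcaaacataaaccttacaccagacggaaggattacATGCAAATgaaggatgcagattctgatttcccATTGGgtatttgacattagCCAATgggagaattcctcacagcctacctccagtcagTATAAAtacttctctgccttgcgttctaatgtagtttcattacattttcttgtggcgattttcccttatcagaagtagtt
DMRTA2: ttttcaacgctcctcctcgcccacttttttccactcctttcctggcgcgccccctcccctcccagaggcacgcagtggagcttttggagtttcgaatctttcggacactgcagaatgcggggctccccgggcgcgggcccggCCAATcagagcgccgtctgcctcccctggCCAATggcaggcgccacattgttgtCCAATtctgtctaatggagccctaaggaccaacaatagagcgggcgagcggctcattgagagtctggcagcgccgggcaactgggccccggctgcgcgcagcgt
SPAG6: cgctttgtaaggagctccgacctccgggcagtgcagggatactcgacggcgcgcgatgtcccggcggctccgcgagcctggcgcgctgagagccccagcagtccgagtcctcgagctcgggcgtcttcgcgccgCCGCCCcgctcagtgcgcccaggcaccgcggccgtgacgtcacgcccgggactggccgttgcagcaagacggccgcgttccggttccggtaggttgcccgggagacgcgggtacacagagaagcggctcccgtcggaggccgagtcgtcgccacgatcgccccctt
FOXA1: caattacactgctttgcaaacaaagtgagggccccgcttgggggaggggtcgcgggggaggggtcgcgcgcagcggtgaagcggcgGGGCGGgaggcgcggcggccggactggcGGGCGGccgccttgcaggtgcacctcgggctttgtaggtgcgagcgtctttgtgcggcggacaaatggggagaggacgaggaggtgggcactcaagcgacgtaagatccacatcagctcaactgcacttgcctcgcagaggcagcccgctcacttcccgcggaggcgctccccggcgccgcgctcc
HAND2: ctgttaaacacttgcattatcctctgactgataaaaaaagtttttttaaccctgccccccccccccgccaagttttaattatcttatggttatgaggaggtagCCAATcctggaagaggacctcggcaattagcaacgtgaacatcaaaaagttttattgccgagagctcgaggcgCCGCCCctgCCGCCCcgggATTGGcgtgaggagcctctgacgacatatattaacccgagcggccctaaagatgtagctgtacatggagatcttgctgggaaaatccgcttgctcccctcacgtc

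The cluster with most loci lies over the host gene of a microRNA of the brain, miR-9, whose hairpin MIR9-2 is 388 bp from the nearest cluster locus. The mature RNAs of this hairpin are shown with their seeds (bases 2 to 8) in capitals.
hsa-miR-9-5p: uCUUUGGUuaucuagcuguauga
hsa-miR-9-3p: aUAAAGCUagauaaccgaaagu

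Markers were checked by summits no more than 2000 bp from either end of the gene in the RefSeq table. Of 12 pluripotency markers, 11 had such summits in all 6 libraries, POU5F1, SOX2 and NANOG among them. LIN28B had none there, though a group of 4 kept loci overlapped the gene. Of 12 markers of other cells, PTPRC, HBB, ALB, INS and MYH7 had none there in any library. MYOD1, NEUROD1, CDX2, SOX17 and TBXT had such summits in all 6, CD3E in 4 and GATA4 in 1, and a group of 3 kept loci overlapped GATA4. An open promoter of a developmental gene is not expression of it.

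Cluster loci were called less regularly than kept loci outside clusters. Only 21.8% of them (29 of 133) were held by all 6 libraries, against 44.0% of the 57907 kept loci outside clusters. At the other end, 33.1% (44 loci) were held by exactly 3 libraries, against 21.3% outside. Of the loci outside, 40565 had no other kept locus within 5 kb. Loci in groups of 2 to 5 were held less often than these in every library, so this is not particular to clusters. The median score percentile of held cluster loci, within each library's own list, lay between 41.7 and 51.4. Outside clusters it lay between 57.2 and 61.6, above the cluster value in 6 of 6 libraries. These figures describe loci that the presence calls themselves selected, so they carry no test.

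The shHNRNPU #1 libraries held 108 and 100 of the 133 cluster loci. The shHNRNPU #2 libraries held 100 and 90. The shLUC libraries held 85 and 90. The groups met at 90 loci, which shHNRNPU #2 repeat 2 and shLUC repeat 2 both held. As shares, these were 81.2%, 75.2%, 75.2% and 67.7% with the HNRNPU hairpins and 63.9% and 67.7% with shLUC. The 95% Wilson intervals ran from 73.7% to 86.9% for the highest library and from 55.5% to 71.6% for the lowest. They cover counting error only and take the loci as independent, which neighbours in a cluster are not. They therefore do not compare the groups. The group means were 74.8% ± 5.54 (SD, n = 4) and 65.8% ± 2.66 (SD, n = 2), a difference of 9.02 percentage points. Outside clusters the means were nearly level, at 80.7% ± 3.03 (SD, n = 4) and 80.5% ± 0.581 (SD, n = 2). The cluster share minus the outside share was -0.340, -9.01, -5.00 and -9.25 points with the HNRNPU hairpins and -17.0 and -12.5 points with shLUC, and here the groups did not overlap.

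**Figure D1:**
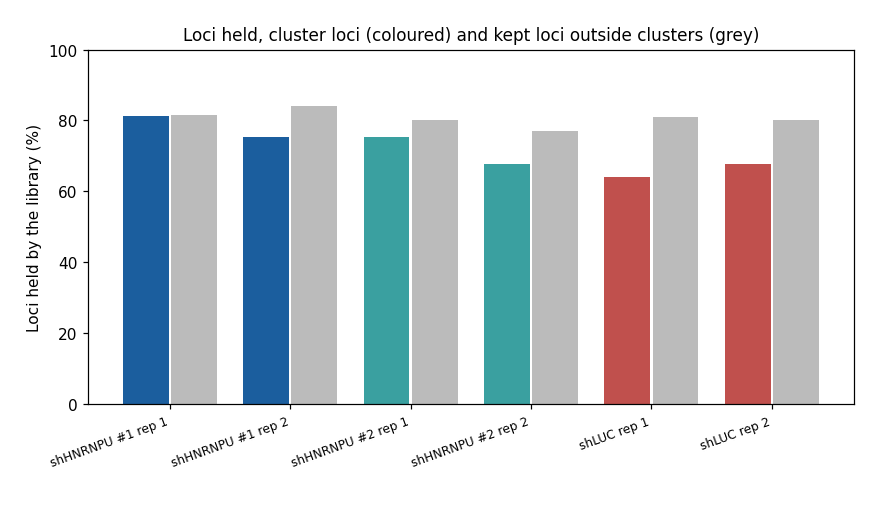
Percentage of loci held (y axis) by each of 6 libraries (x axis), for the 133 cluster loci (coloured bars) and for the 57907 kept loci outside clusters (grey bars). The coloured bars run from 63.9% to 81.2%, and in every library the coloured bar is below the grey one.

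The rule does not treat the groups alike. A locus held only by both shLUC libraries is in 2 lists and cannot be kept, whereas a locus held only by 3 or 4 shHNRNPU libraries can. A group of sites called mainly in shHNRNPU libraries therefore becomes a cluster more easily than one called mainly in shLUC, and the difference of 9.02 points is given with no test. To see the share in libraries that did not choose the loci, clusters were also built from 1 repeat (loci in 2 or more of its 3 lists) and measured in the other. Clusters from repeat 1 (5 clusters, 34 loci) were held at 73.5% by shHNRNPU #1, 82.4% by shHNRNPU #2 and 76.5% by shLUC in repeat 2. Clusters from repeat 2 (7 clusters, 44 loci) were held at 79.5%, 75.0% and 70.5% in repeat 1. The shHNRNPU mean was above shLUC by 1.47 points in the former and by 6.82 points in the latter, and in the former shLUC lay between both hairpins. These have 1 or 2 libraries a group, so no test was made.

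With wider matching the groups were further apart. Of the loci that a library did not hold, a summit lay within 1000 bp for 19 of 25, 24 of 33, 24 of 33 and 27 of 43 in the shHNRNPU libraries. In the shLUC libraries this was so for 18 of 48 and 20 of 43. Held within 1000 bp, the shares were 95.5%, 93.2%, 93.2% and 88.0% with the HNRNPU hairpins and 77.4% and 82.7% with shLUC. A locus missing from a shHNRNPU library thus more often had another summit close by, which could be that of a neighbouring cluster locus. Counted as summits inside the cluster spans, kept or not, there were 96, 89, 85 and 81 with the HNRNPU hairpins and 71 and 73 with shLUC. This is 0.151% ± 0.0100 (SD, n = 4) and 0.117% ± 0.00338 (SD, n = 2) of all summits of a library. The spans and the centres were chosen by the same calls, unequally between the groups, so neither count is free of the rule or tested.

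The median score percentile of held cluster loci overlapped between the groups. It was 42.8, 51.4, 41.7 and 43.9 with the HNRNPU hairpins and 44.3 and 47.9 with shLUC. The means were 45.0 ± 4.37 (SD, n = 4) and 46.1 ± 2.52 (SD, n = 2). The percentile placed the centres of loci and was read only at loci that a library held, so these values carry no test.

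The difference was larger for groups of more loci, as a description of the same calls. Those calls selected the loci unequally between the groups at every size, so the order was not tested. Lone loci (40565) were held at 82.9% ± 3.63 (SD, n = 4) with the HNRNPU hairpins and at 83.6% ± 0.974 (SD, n = 2) with shLUC. In the 6507 groups of 2 loci the shHNRNPU mean was higher by 1.76 points. In the 1097 groups of 3, the 203 groups of 4 and the 45 groups of 5 it was higher by 3.00, 3.66 and 5.89 points. The mean share of shLUC was 83.6% for lone loci, 70.4% for groups of 5 and 65.8% in clusters. The shHNRNPU mean was between 74.5% and 76.3% from groups of 2 to groups of 5, and was 74.8% in clusters.

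The 20 clusters lay on 14 chromosomes, and 12 had 6 loci, 7 had 7 and 1 had 12. Their spans, from the first to the last centre, had a median of 11.02 kb and summed to 231.7 kb. Of 113 gaps between neighbours, the median was 1687 bp, and 23 were under 500 bp, where 1 summit can count for 2 loci. Between 5 and 10 summits a library did so. A protein-coding gene overlapped 16 of the clusters, with 25 such host genes of 20037 in the RefSeq table. The clusters are called here by a leading gene, and the role of each was assigned after its values were seen, so the comparison of roles has no test.

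**Figure D2:**
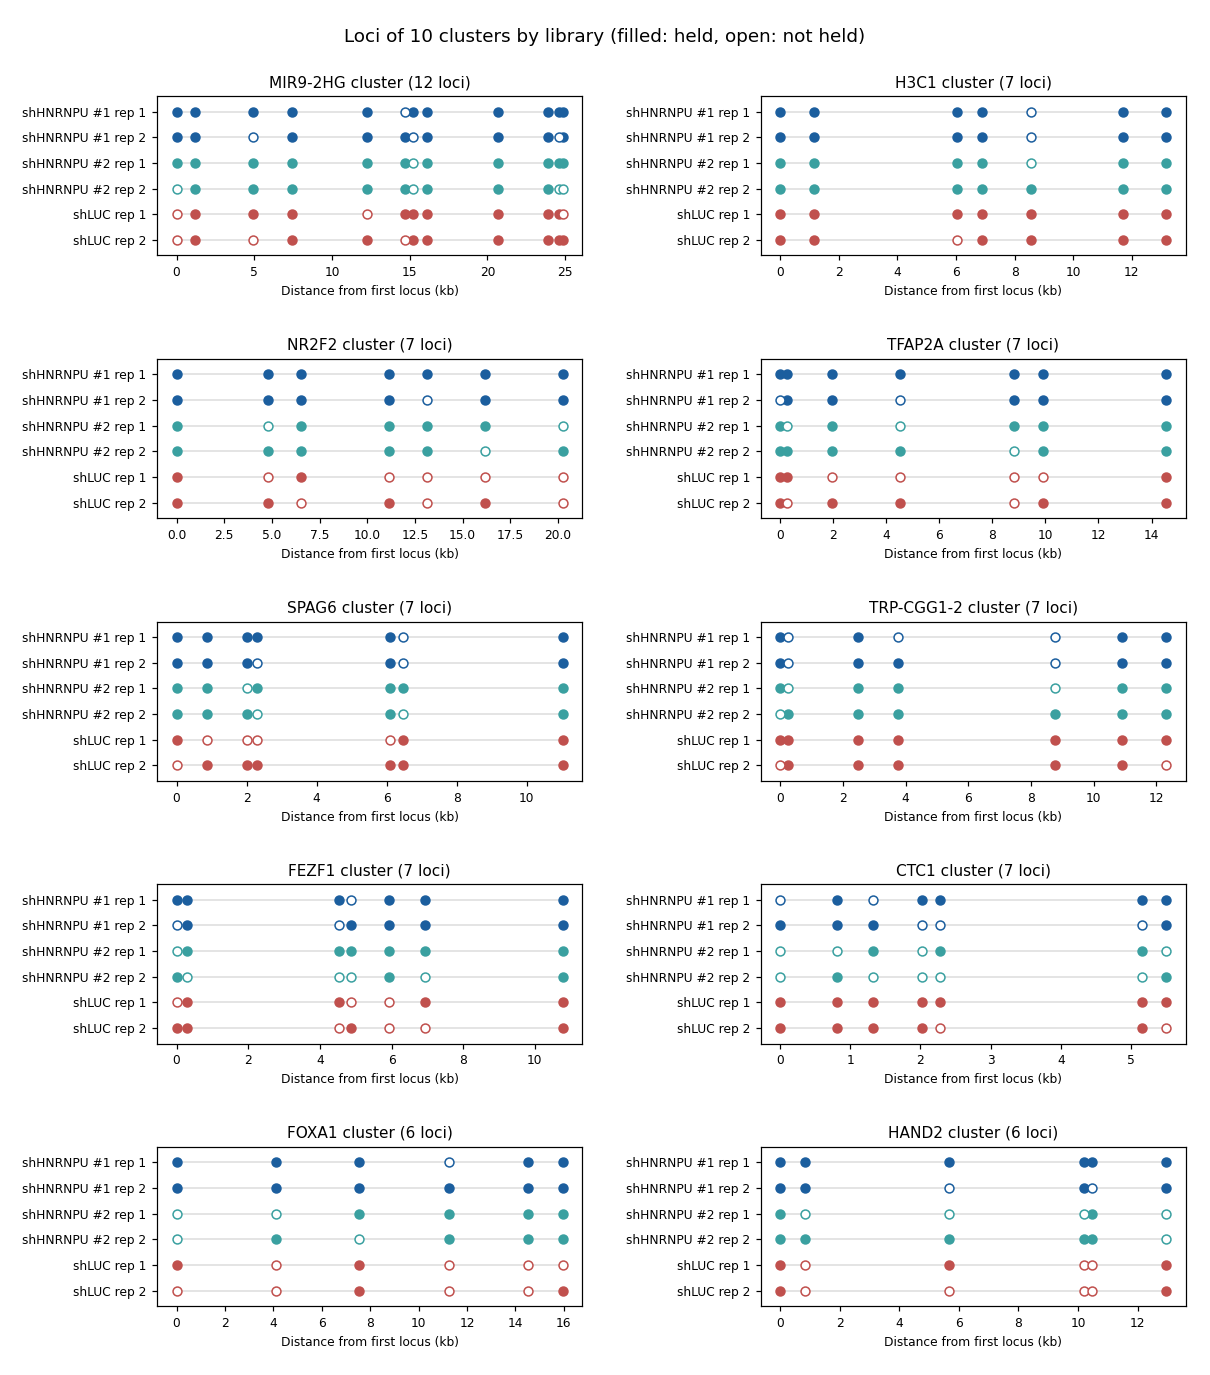
Loci of 10 clusters, the 8 with most loci and those at FOXA1 and HAND2, as distance from the first locus in kb (x axis) in each of 6 libraries (rows). Filled points are loci that the library held and open points are loci that it did not; in the NR2F2 and FOXA1 clusters open points gather in the shLUC rows, and in the CTC1 cluster they gather in the shHNRNPU rows.

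Genes for developmental transcription factors led 8 of the clusters, with 51 loci. The shHNRNPU libraries held 46, 41, 35 and 33 of these loci, and the shLUC libraries held 26 and 27. As shares, the means were 76.0% and 52.0%, and the groups did not overlap. The roles were assigned after these values were seen, and the same calls selected the loci, so the comparison carries no test. Both shHNRNPU #1 libraries were above both shHNRNPU #2 libraries. Within 1000 bp the counts were 49, 48, 45 and 41 against 31 and 34, and by summits inside the spans they were 41, 39, 34 and 37 against 25 and 25. The 8 clusters of other leading genes (49 loci) were held at 36, 35, 40 and 34 loci against 29 and 38, and there the groups overlapped.

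**Figure D3:**
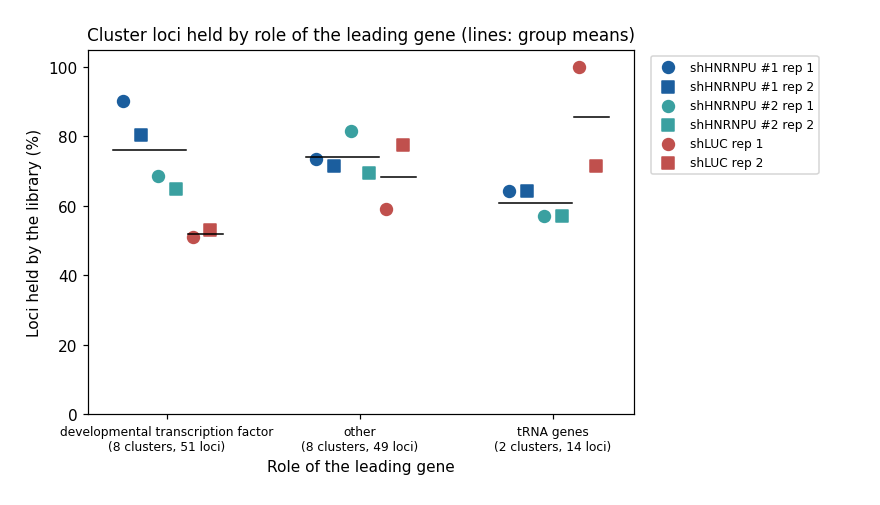
Percentage of cluster loci held (y axis) by each library (points), grouped by the role of the leading gene (x axis); black lines are the means of 4 shHNRNPU and 2 shLUC libraries. At developmental transcription factors the shLUC points lie at 51.0% and 52.9%, below the lowest shHNRNPU point at 64.7%, and at tRNA genes they are both above the highest shHNRNPU point, at 64.3%.

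A cluster of 7 loci (chr15:96340972-96361241) began 709 bp past NR2F2, which encodes the orphan nuclear receptor COUP-TFII. It was held at 7, 6, 5 and 6 loci with the HNRNPU hairpins and at 2 and 4 with shLUC. Its first locus, held by all 6 libraries, was at percentiles 59.1, 58.8, 61.0 and 45.7 against 36.1 and 31.3. The last locus was 20.3 kb further on, and the last 4 of the 7 lay over the long noncoding RNA gene LOC101927263. Here every shHNRNPU library held more loci than both shLUC libraries.

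The FOXA1 cluster (chr14:37584057-37600019, 6 loci) spans a gene for a pioneer factor of endoderm, and the start of its neighbour TTC6. It was held at 5, 6, 4 and 4 loci with the HNRNPU hairpins and at 2 and 2 with shLUC. The locus 2965 bp past the start of TTC6 was held by 4 of 4 shHNRNPU libraries and by neither shLUC library. It was weak, at percentiles 11.9, 12.7, 1.3 and 4.88. FOXA1 and NR2F2 were the only clusters, of 20, in which the groups did not overlap, both higher with the HNRNPU hairpins and none lower. Counted from the first locus, loci 2, 4 and 5 of FOXA1 and loci 5 and 7 of NR2F2 were held by no shLUC library. Among 7852 groups of 2 to 5 kept loci, 2.75% were higher in every shHNRNPU library and 1.97% were lower. By size, 8.87% of groups of 4 loci and 4.44% of groups of 5 were higher, against 2 of the 20 clusters. The rule cannot keep a locus held only by both shLUC libraries. It therefore favours the higher direction in clusters and in smaller groups alike, and the counts carry no test.

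The HAND2 cluster (chr4:173517103-173530071, 6 loci) lies at a basic helix-loop-helix factor of heart and limb. It was held at 6, 4, 2 and 5 loci against 3 and 2, so the groups overlapped. Its 2 neighbouring loci at -1284 and -1018 bp from the start of HAND2-AS1 were each held by 3 shHNRNPU libraries and by neither shLUC library. These loci lie 266 bp apart. In shHNRNPU #1 repeat 1 and in shHNRNPU #2 repeat 2 the same summit counted for both, so they are not separate evidence. The summits at the HAND2 promoter shown above were 9 and 20 bp past the start in shLUC, and the locus there, 158 bp inside the gene, was held by 2 shHNRNPU and both shLUC libraries.

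TFAP2A, a factor of neural crest and surface ectoderm, is 603 bp from a cluster of 7 loci (chr6:10381511-10396074). This cluster was held at 7, 5, 5 and 6 loci against 3 and 5. DMRTA2, a factor of the developing cortex, had 6 loci (chr1:50416874-50430675), held at 4, 5, 6 and 3 against 4 and 2. WT1, a zinc-finger factor of kidney and gonad, had 6 loci (chr11:32427025-32438028), held at 6, 5, 3 and 4 against 4 and 3. In all of these the mean was higher with the HNRNPU hairpins and the groups overlapped.

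FEZF1, a zinc-finger factor of the forebrain, had 7 loci (chr7:122299958-122310746), held at 6, 5, 6 and 3 against 4 and 4. TBR1, a T-box factor of cortical neurons, was the exception among the developmental genes. Its 6 loci (chr2:161414571-161428317) were held at 5, 5, 4 and 2 against 4 and 5, and the mean was lower with the HNRNPU hairpins, at 4.00 loci against 4.50.

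Transfer RNA genes, which are short and transcribed by RNA polymerase III, had the opposite difference in means. A cluster of 7 loci (chr17:8221489-8226994) covers 6 tRNA genes and an end of CTC1, a gene for telomere replication. It was held at 5, 4, 3 and 2 loci with the HNRNPU hairpins and at 7 and 5 with shLUC, so the groups met at 5. The locus 2554 bp inside LINC00324, beside TRG-TCC3-1, was held by both shLUC libraries at percentiles 85.2 and 60.9 and by 1 shHNRNPU library at 60.4. A second cluster of 7 loci (chr16:3171867-3184188) covers 5 tRNA genes, TRP-CGG1-2 first, and was held at 4, 5, 5 and 6 loci against 7 and 5. Together the shHNRNPU libraries held 9, 9, 8 and 8 of the 14 loci, and the shLUC libraries held 14 and 10. By summits in the spans the counts were 7, 8, 6 and 6 against 10 and 9. Within 1000 bp they were 12, 13, 12 and 12 against 14 and 13, and there the groups met.

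The tRNA genes outside clusters gave values that the cluster rule did not choose, though they were looked at because of these 2 clusters. Clusters hold 12 of the 443 tRNA genes of the table (2.71%), which leaves 431. A summit lay inside the gene for 57, 54, 60 and 71 of them in the shHNRNPU libraries, and for 87 and 87 in the shLUC libraries. The groups did not overlap. The means were 14.04% ± 1.72 (SD, n = 4) and 20.2% (both shLUC libraries alike, n = 2), a difference of -6.15 points with an exact permutation p of 0.133, the smallest it can give. Within 250 bp the counts were 215, 203, 216 and 197 against 229 and 229 (-4.93 points, p = 0.133 in the same exact test). Within 500 bp they were 252, 240, 247 and 242 against 266 and 265 (-4.70 points, p = 0.133 in the same exact test).

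Protein-coding genes were not lower. Of 20022 gene positions, 53.6%, 54.2%, 52.6% and 52.4% had a summit within 250 bp of an end in the shHNRNPU libraries, and 52.1% and 52.5% in the shLUC libraries (0.92 points higher, exact permutation p = 0.267). The difference at tRNA genes was also there with lists of equal length. Among the 52168 summits of highest score in each list, 55, 50, 60 and 71 tRNA genes had a summit inside against 84 and 87. Many tRNA genes have near-identical copies, and how reads with several matches were placed is not given in the sources used here. So the values of single tRNA genes are uncertain.

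**Figure D4:**
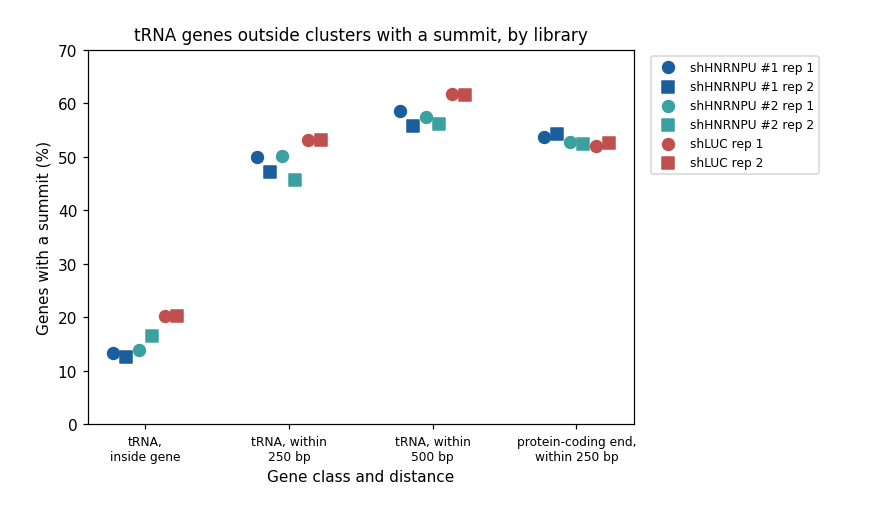
Percentage of the 431 tRNA genes outside clusters with a summit inside the gene, within 250 bp or within 500 bp, and of protein-coding genes with a summit up to 250 bp from either end (x axis), in each library (points, y axis in percent). The shLUC points are highest in all 3 tRNA columns, at 20.2%, 53.1% and 61.5% to 61.7%, and not in the protein-coding column.

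The MIR9-2HG cluster (chr5:88659889-88684747) had 12 loci over 24.9 kb, the most of all. It was held at 11, 9, 11 and 8 loci with the HNRNPU hairpins and at 9 and 9 with shLUC, so the groups overlapped. Of the 12 loci, 5 were held by all 6 libraries. The locus 12257 bp past the nearest listed start of MIR9-2HG had the highest mean percentile of all 133, between 94.4 and 97.2 in every library. The locus closest to the miR-9 hairpin shown above was also held by all 6, at percentiles 62.4, 53.7, 43.5 and 12.2 against 74.6 and 39.1. Its nearest protein-coding gene was MEF2C, 32370 bp away.

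The histone cluster (chr6:26020443-26033625) had 7 loci over H3C1, H4C1, H4C2, H3C2 and H2AC4, genes that are transcribed for DNA replication. It was among the most evenly held, at 6, 6, 6 and 7 loci with the HNRNPU hairpins and at 7 and 6 with shLUC. Of its loci, 5 were held by all 6 libraries. At H3C2 the summits lay at -49, 3, -47 and -49 bp from the gene start with the HNRNPU hairpins and at -49 and -50 bp with shLUC. This locus was at percentiles 93.2, 84.4, 89.7 and 85.6 against 74.3 and 87.3. These positions fall within the H3C2 sequence printed above, near its TATAAA.

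Other clusters held genes of mixed function. SPAG6, a gene for a cilium protein, had 7 loci (chr10:22334461-22345499), held at 6, 5, 6 and 5 against 3 and 6. The cluster at BMI1, a Polycomb gene, lies 8721 bp before it and was held at 4, 5, 5 and 4 of 6 loci against 4 and 5. EML2, a microtubule-associated gene, was held at 6, 6, 4 and 4 of 6 loci against 4 and 3. MNT, a MAX-binding repressor, was held at 5, 3, 5 and 6 of 6 loci against 4 and 3. The cluster of ACTRT3 and TERC, the telomerase RNA gene, was held at 6, 5, 5 and 3 of 6 loci against 4 and 6. IER2, an immediate early gene, was held at 4, 3, 4 and 4 of 6 loci against 3 and 5. MED29, a Mediator subunit gene beside ZFP36, was held at 3, 5, 6 and 6 of 6 loci against 3 and 5.

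**Figure D5:**
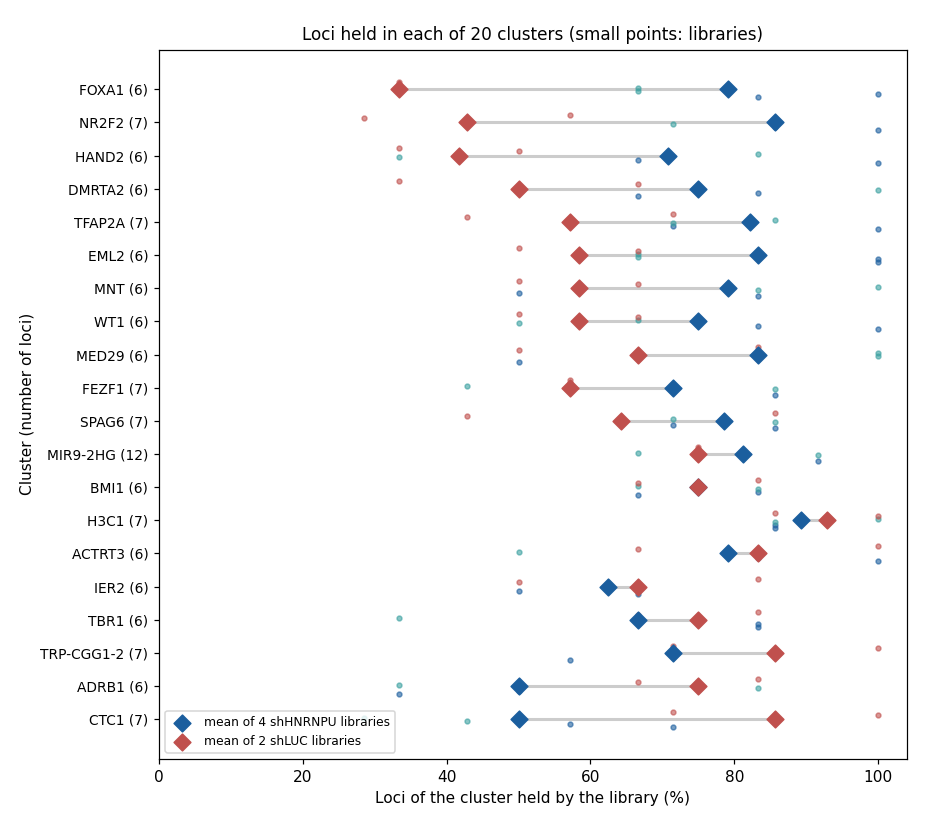
Percentage of loci held (x axis) in each of 20 clusters (rows, with the number of loci), as means of 4 shHNRNPU libraries (blue diamonds) and 2 shLUC libraries (red diamonds), with small points for the libraries in the colours of the hairpins. The blue diamond is to the right in 12 clusters, to the left in 7 and at the same place in 1, from FOXA1 at the top to CTC1 at the bottom.

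ADRB1, the beta-1 adrenergic receptor gene, had the densest cluster, with 6 loci over 2.07 kb (2.90 loci per kb). Of the gaps between these loci, 4 were under 500 bp, where 1 summit can count for 2 loci. The cluster was held at 2, 3, 5 and 2 loci against 4 and 5. Its span held 2, 2, 3 and 1 summits with the HNRNPU hairpins and 3 and 3 with shLUC. Within 1000 bp every library held 6 of 6, which in so short a span a few summits suffice for. Just outside the rule, the densest group of 5 loci was at ADCY5, with 1.90 kb and 2.63 loci per kb, held at 4, 4, 3 and 2 loci against 2 and 3. FGFRL1 followed with 2.03 kb, held at 2, 3, 3 and 3 against 2 and 4.

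By single loci, the 133 cluster loci were near the rest of the genome. Held by all 4 shHNRNPU libraries and neither shLUC library were 4 of them (3.01%), against 1.87% of kept loci outside clusters. Held by both shLUC libraries and exactly 1 shHNRNPU library were 7 (5.26%), against 5.53% outside. Across clusters, 12 had a higher mean with the HNRNPU hairpins, 7 a lower mean and 1 the same.

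Cluster loci were often close to genes. Of them, 42.1% were no more than 2000 bp from where a protein-coding gene starts or stops (56 of 133), against 29.8% of kept loci outside clusters. Within 500 bp the order turned, at 18.8% against 21.6%. With genes of all biotypes the shares within 2000 bp were 62.4% and 39.5%. Inside gene bodies lay 36.1%, against 47.2% outside clusters. The 42 promoter windows in clusters had a median GC content of 60.5% and 19 CpG, against 58.7% and 14 over the 34943 windows of the table. GGGCGG was in 59.5% of the cluster windows and in 44.9% of all, and CCAAT was in 47.6% and 34.6%. The octamer ATGCAAAT was in 4.76% (2 of the 42 windows) against 1.77%, and TATAAA was in 9.52% against 11.6%. The ETS letters CCGGAAG were in 9.52% against 10.2%, and the E-box CACGTG was in 9.52% against 7.23%. The AP-1 letters TGACTCA were in none of the 42 and in 4.96% of all windows, and the NRF1 letters GCGCATGC were in none and in 3.02%. Windows of 1 gene can overlap, and so can windows of neighbouring genes, such as HAND2 and HAND2-AS1. The same letters can thus count more than once, and these shares are descriptions.

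Of the gene lists, only the histone genes had hosts of clusters, with 5 of 74. None of 30 pluripotency genes, 28 lineage regulators, 38 signalling genes, 21 nuclear matrix genes or 26 chromatin regulators was a host. This covers only the listed genes. The hosts HAND2, FOXA1, TBR1, FEZF1, WT1 and DMRTA2 are developmental transcription factors that the list of lineage regulators does not contain. The host BMI1, a Polycomb gene, is not in the list of chromatin regulators. TFAP2A and NR2F2, both lineage regulators, were the nearest protein-coding genes of a cluster. In smaller groups the lineage regulators were frequent: 50.0% of them (14 of 28) overlapped a group of 3 or more kept loci, with 5 loci each at GATA3, SIX3 and TFAP2A. This was so for 6 of 30 pluripotency genes, and for 23.7% of signalling genes, 11.5% of chromatin regulators, 9.52% of nuclear matrix genes and 6.04% of all protein-coding genes. Protocadherins reached 37.9%, HOX genes 23.1% and ZNF genes 2.94%. With the HNRNPU hairpins the group of 5 loci at GATA3 was held at 5, 5, 4 and 2, against 2 and 3 with shLUC. At SIX3 the values were 4, 4, 4 and 5 against 3 and 4, and at TFAP2A 3, 5, 5 and 3 against 5 and 4. In each the libraries of both kinds overlapped.

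Around the same listed genes, summits outside the clusters were counted from 10 kb before each gene to 10 kb after it. The 28 lineage regulators had 142, 168, 129 and 134 summits with the HNRNPU hairpins and 127 and 114 with shLUC, without overlap. The means were 143 ± 17.3 (SD, n = 4) and 120.5 ± 9.19 (SD, n = 2), with exact permutation p = 0.133 and 0.333 after Benjamini-Hochberg adjustment over 5 lists. Signalling genes had 177, 177, 152 and 160 against 149 and 151, with the same exact p and adjusted p. Chromatin regulators had 128, 128, 103 and 105 against 104 and 102, and there the groups overlapped (exact p = 0.267). Pluripotency genes had 115, 118, 93 and 99 against 100 and 107 (exact p = 0.80), and nuclear matrix genes had 75, 75, 73 and 63 against 68 and 76 (exact p = 0.933). None of the 5 lists passed the adjustment, and 6 libraries could not have passed it. No such count over all protein-coding genes stands beside these, so a difference particular to any list was not tested.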

How the data were processed

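ATAC-seq was done on H1 cells, and the 6 libraries were grouped by the hairpin and repeat in their titles. The authors deposited 1 list of peak summits per library, on hg38, with a score that by its values is the −log10 of the q-value within that library, starting between 1.30 and 1.31. Their processing notes name cutadapt, Bowtie2, SAMtools, MACS2 and deepTools. Read filters and any Tn5 shift are not given in the sources used here, and scores were not normalized between libraries. The article linked to the series reports other cells, so only its style was used.

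From the summits, loci, clusters and shares held were computed with Python 3.11.15, numpy 2.4.6, pandas 2.3.3 and scipy 1.17.1, and checked on simulated data. Gene and promoter positions are from RefSeq, GRCh38.p14. Groups were compared by two-sided exact permutation tests over 15 choices of 2 control libraries of 6. They were planned for the shares and percentiles of the calls that chose the clusters, and for these they are not printed. The printed tests, of tRNA genes, protein-coding gene ends and gene lists, were not planned. The loci and lists were chosen with earlier results of these data known. Clusters to name were the 10 with most loci, those without group overlap, up to 8 each way, hosts of pluripotency genes and those at the threshold; the others were named after their values were seen. Alternatives changed matching, gap, file, size and score limits, list length, chromosomes and libraries.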

Additional observations from a re-analysis of the deposited data

How the results depend on the processing

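Depth is unknown, so a locus without a summit is 1 that was not called. The share of cluster loci held, higher by 9.02 points with the HNRNPU hairpins, rests on calls that the rule selects unequally between the groups, and nearly all alternatives keep that selection, so their direction is no sign of stability. With gaps of at most 3 kb (5 clusters, 31 loci) it was -4.84 points, -5.03 points against loci outside and -0.00330 points as a share of kept loci. Permuting labels within repeats (replicate block) leaves the difference of 9.02 points as it is. None of the tests outside clusters passed 0.05 with or without the block, and with 6 libraries none could have passed. The difference between repeat 1 and repeat 2 over kept loci correlated between pairs of groups at -0.0326, 0.00430 and 0.00214, so the repeats were treated as sharing only a number.

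The number of clusters depended on the rule. Gaps of up to 10 kb gave 244 clusters with 1751 loci, loci in 2 or more lists gave 67 with 456, in 4 or more 4 with 28, and groups of 5 or more loci 65 with 358. Groups of 8 or more loci left 1 cluster with 12 loci, scores of at least 5 left 2 with 13, and lists of one size 10 with 66. Clusters built on repeat 1 were 5 with 34 loci and on repeat 2 were 7 with 44. Matching at 500 bp gave 15 clusters with 99 loci. Kept loci at least 500 bp apart gave 9 clusters with 61 loci. Clusters without overlap of the groups, 2 higher and 0 lower, became 18 higher and 7 lower with 10 kb gaps, 10 and 3 with loci in 2 or more lists, and 4 and 1 with 5 or more loci. They became 5 higher when held within 1000 bp, 1 higher with matching at 100 bp or scores of at least 5, and 0 higher with 3 kb gaps, loci in 4 or more lists, 8 or more loci or lists of one size. Leaving out 1 library gave 2 to 4 higher and 0 to 2 lower: without shLUC repeat 1 they were 4 and 1, without shLUC repeat 2 they were 4 and 2, and without repeat 1 of shHNRNPU #1 or of shHNRNPU #2 there was 1 lower.

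The difference in median percentile, -1.12, changed sign under 11 of 21 alternatives: 2.80 and 2.57 with matching at 100 and 500 bp, 1.01 with 10 kb gaps, 3.65 with loci in 2 or more lists, 1.49 and 6.83 with at least 5 and 8 loci, 2.32 with lists of one size, 0.93 within 1000 bp, and 4.20 and 2.42 in the held-out repeats. Leaving out 1 library gave -3.26 to 0.66, the latter without shLUC repeat 2. Near a gene end lay 42.1% of cluster loci, 18.8% within 500 bp and 62.4% with all biotypes.

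The alternatives for the tRNA genes and lists outside clusters were chosen after seeing the data. The share of tRNA genes with a summit was lower with the HNRNPU hairpins at each distance, with lists of one size and without any 1 library, where the difference was -5.65 to -6.96 points. The lineage regulators had more summits with other flanks, with lists of one size and without any 1 library, from 14.5 more without shHNRNPU #1 repeat 2 to 29.2 more without shLUC repeat 1, against 22.8. For signalling genes, 16.5 more summits became 14.8 more with lists of one size and 18.5 more with 20 kb flanks, and in both the groups met at a shared value (exact permutation p = 0.267). For chromatin regulators, 13.0 more became 12.2 more with lists of one size, where they did not overlap (exact permutation p = 0.133). For pluripotency genes, the difference of 2.75 summits became -1.17 to 7.17 without 1 library, and turned without either shHNRNPU #1 library or without shLUC repeat 1. For nuclear matrix genes, -0.50 became 2.50 with 20 kb flanks, 1.00 with lists of one size and -4.50 to 3.50 without 1 library.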
